A study of Mus musculus with 8 samples.

Results

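Mouse expanded potential stem cells (EPSC) were cultured for 3 days with T0901317 (T09), a compound that activates the liver X receptors (LXR), and are compared here with untreated EPSC. The comparison rests on 2 of the 8 RNA sequencing libraries of the series, untreated EPSC and T09-treated EPSC, chosen by their labels, with 1 library a side. Of 24888 genes in the deposited count table, 13632 had 20 or more counts in 1 of these 2 libraries and were compared. Both libraries came from E14 mouse embryonic stem cells (ESC) that had been passaged 5 times in EPSC medium, so both carry everything in that medium. Its components were DMEM/F-12, knockout serum replacement, LIF, the GSK3 inhibitor CHIR99021, the MEK inhibitor PD0325901, JNK Inhibitor VIII, the p38 inhibitor SB203580, the Src family inhibitor A-419259 and the tankyrase inhibitor XAV939. The T09 dose is labelled 1 uM/mL, from which a molar concentration cannot be read, and the labels name no vehicle for the untreated cells and do not say whether the cultures were grown side by side. A second pair, untreated ESC and ESC given T09 at the same labelled dose for 3 days, was grown in medium with serum, LIF, CHIR99021 and PD0325901 and is set beside the EPSC pair, with which it shares no library. The other 4 libraries are day 2 blastoids (embryo-like aggregates) after an siRNA to Nr1h2 or a non-targeting siRNA and day 5 Type I and Type III blastoids from T09-treated EPSC, and they serve only to show the range of a gene's level.

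LXR alpha and beta are nuclear receptors that bind oxysterols and pair with RXR on the promoters and enhancers of genes for cholesterol export and fatty acid synthesis. T09 is a strong agonist of both and is also known to act on other receptors, among them the pregnane X and farnesoid X receptors. EPSC are ESC held by inhibitors of several kinases and of the destruction of Axin, a state reported to have wider developmental potential than ESC.

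Each difference is a log2 ratio of scaled counts, T09-treated over untreated, with a 95% exact Clopper-Pearson interval in brackets that covers counting error only. No replicate exists, so no p-value can be given, and a difference between 2 cultures cannot be told apart from an effect of T09. A gene is called higher or lower where the ratio is at least 2-fold and the interval excludes 0. Of the 13632 genes 571 were called (4.19%), 122 higher (0.895%) and 449 lower (3.29%), and 74.6% of the called genes had under 100 counts in both libraries. Among genes with 100 or more counts, 31 of 11243 were higher (0.276%) and 114 lower (1.01%). Among the 6916 genes with 1000 or more counts, 9 were higher and 15 lower, and 70.9% lay within 0.2 of 0. Total counts were 38187665 untreated and 40781415 treated, so a gene with 0 counts could have stood at up to 0.0786 and 0.0741 CPM (scaled counts per 1e6, with a floor of 3 counts in each library). The markers of pluripotent cells were high in both libraries, with 7 of 7 present and a summed level of 4558 CPM untreated and 5038 CPM treated.

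LXR targets check the treatment label. Of 15 compared, 8 were called higher (53.3%, beside 0.895% of all genes) and 0 lower, with a median log2 ratio of 1.00, and the median over all genes compared was -0.00. Of 27 genes of fatty acid synthesis 3 were higher and 0 lower, with a median of 0.26. Abcg1, the exporter of cholesterol to lipoproteins, had 71 counts untreated and 2437 treated. Fasn, fatty acid synthase, had 21738 and 41211 counts, a log2 ratio of 0.84 (0.82 to 0.86). Nr1h2, which encodes LXR beta, had 2959 and 3723 counts, while Nr1h3, which encodes LXR alpha, had 26 and 30 counts. Of 26 genes of cholesterol synthesis and uptake 0 were called, with a median of -0.03 (0.41 in the ESC pair). Of 24 targets of the pregnane X, constitutive androstane and farnesoid X receptors, 9 had enough counts and 0 were called, with a median of -0.04. This list need not cover every receptor that T09 can reach. Programmes outside lipid metabolism follow.

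**Figure D1:**
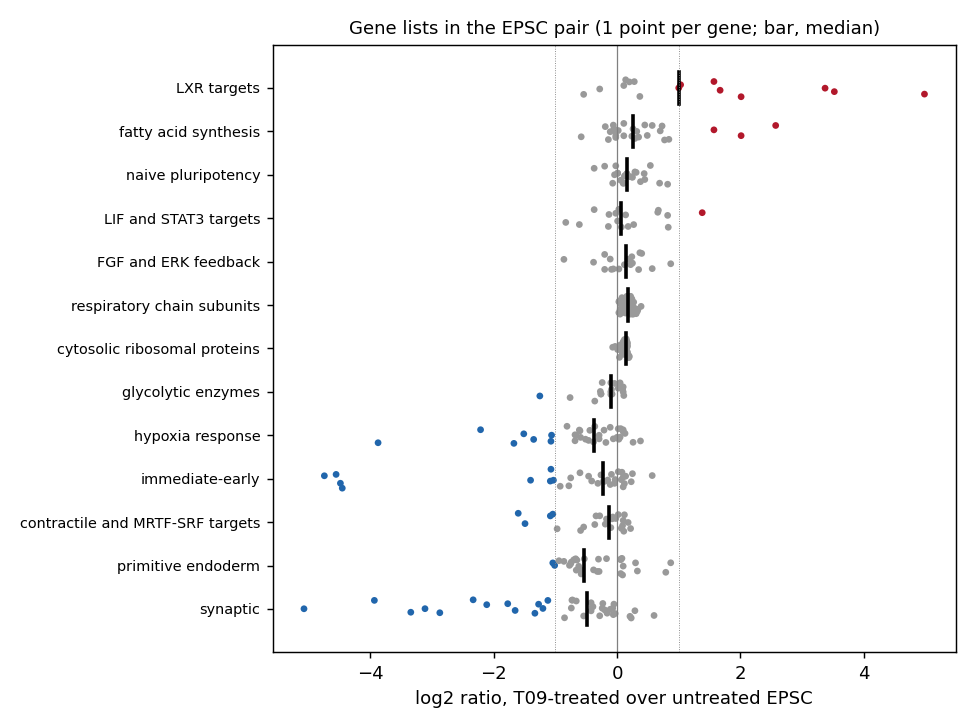
Log2 ratio of T09-treated over untreated EPSC (horizontal axis) for the compared members of 13 gene lists, 1 point per gene, red for called higher, blue for called lower and grey for not called; the bar is the list's median and the dotted lines mark 2-fold. The LXR targets lie to the right, with a median of 1.00, and the blue points lie mainly in the immediate-early, hypoxia and synaptic lists.

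Immediate-early genes, which are transcribed within minutes of a growth factor, serum or stress signal, held the most extreme well-counted ratios below 0. Of 33 compared members, 8 were lower in T09-treated EPSC (24.2%, beside 3.29% of all genes) and 0 higher, with a median of -0.22. The list holds 38 genes, 5 had too few counts, and 4 passed the count minimum only through the untreated library, of which 3 were called lower.

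Egr1, a zinc-finger transcription factor downstream of ERK, had 2759 counts untreated and 123 treated, a log2 ratio of -4.55 (-4.84 to -4.31). Its levels were 72.2 CPM (untreated) and 3.04 CPM (T09) in the EPSC pair, 0.362 and 89.9 CPM in the ESC pair, 6.91 and 7.74 CPM in the siNT and siNr1h2 blastoids, and 28.9 and 16.2 CPM in the Type I and Type III blastoids. Untreated EPSC and T09-treated ESC were thus the high libraries, and untreated ESC the lowest. Fos, a subunit of the AP-1 factor, had 1096 and 51 counts (-4.45, -4.94 to -4.10), and its levels in ESC were 0.543 CPM untreated and 22.5 with T09. Fosb, another AP-1 subunit, had 210 and 8 counts (-4.48, -6.03 to -3.79), with 0.241 and 1.31 CPM in the ESC pair. Each of these 3 genes was low with T09 in EPSC and high with T09 in ESC. Egr2 had 50 counts untreated and 0 treated, at least 17.7-fold lower against a floor of 3 counts in the treated library.

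The other lower members were smaller in ratio. Ctgf and Cyr61, secreted matrix proteins that are also classic targets of YAP, had 965 and 385 counts (-1.40, -1.58 to -1.24) and 1499 and 748 counts (-1.08, -1.22 to -0.96). Maff, a small Maf factor, had 194 and 97 counts (-1.07), against 1.28 in the ESC pair. Fosl2 rested on 29 and 14 counts (-1.03, -2.17 to -0.17). Jun, the main partner of Fos, had 352 and 196 counts (-0.92, -1.19 to -0.67) and stayed under 2-fold.

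Most members of the list were not called. Ier2 had 8167 and 8800 counts (0.02), Junb 1207 and 1412 (0.14), Nr4a1 1601 and 1993 (0.23), Arc 1434 and 1492 (-0.03) and Btg2 902 and 929 (-0.04). Myc was above 0, with 321 and 506 counts (0.57, 0.37 to 0.78). The difference was therefore uneven across genes that often respond together. Of the 13412 genes compared in the ESC pair 525 were called (3.91%), 186 of them higher (1.39%), and of its 32 immediate-early genes 5 were higher and 0 lower, with a median of 0.31.

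The serum response factor binds a site known as the CArG box, which occurs upstream of many immediate-early genes. It was looked for on both strands in RefSeq promoter windows of build GRCm38.p6, from 250 bases before to 50 after the start, a later build than the mm9 named for the counts, and the windows are printed to 30 bases after the start. At least 1 window held it for 4 of 25 immediate-early genes with a window (16%), against 1.52% of 10675 compared genes, and 1.63% of all 32851 windows held it. Dusp5, Egr2, Srf and Zfp36 were the 4 genes, of which Egr2 alone was called lower. Only 5 of the 8 lower genes had a window. Egr1, Ctgf and Cyr61 had none and were not searched. The Egr2 window shows the match in capitals, 72 bases before the start (chr10:67537316-67537595, plus strand).

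Egr2: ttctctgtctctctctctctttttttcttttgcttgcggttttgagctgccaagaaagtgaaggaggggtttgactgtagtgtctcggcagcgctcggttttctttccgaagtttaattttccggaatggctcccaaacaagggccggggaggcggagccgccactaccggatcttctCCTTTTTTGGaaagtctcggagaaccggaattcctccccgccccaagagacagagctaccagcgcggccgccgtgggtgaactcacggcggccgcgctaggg

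These letters are a match, not a measured binding site, and the windows of Fos and Fosb held none within this stretch. Feedback genes of the same ERK pathway were also compared. Of 18, 0 were called in either direction, with a median of 0.15. Spry4, a Sprouty inhibitor of the pathway, had 1250 and 2426 counts (0.87, 0.77 to 0.97), Spry2 1985 and 3131 (0.57, 0.49 to 0.66), the phosphatase gene Dusp6 1236 and 1696 (0.37, 0.27 to 0.48) and Etv4 2579 and 3617 (0.40, 0.33 to 0.48). Fgfr2, a receptor, lay the other way with 489 and 285 counts (-0.86, -1.08 to -0.65). Both media contain the MEK inhibitor PD0325901, which acts on this pathway.

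**Figure D2:**
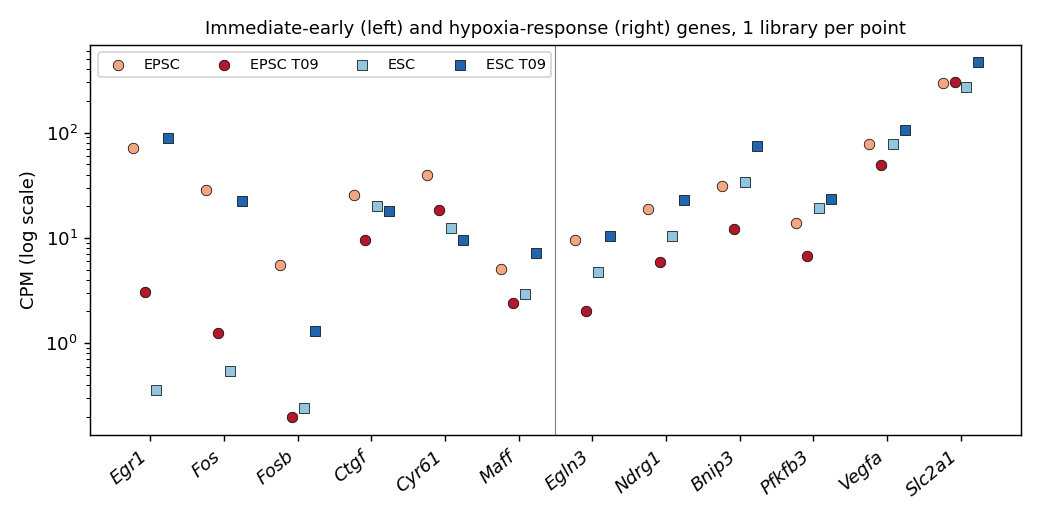
Level in CPM on a log scale (vertical axis) of 6 immediate-early genes (left) and 6 hypoxia-response genes (right) in the 4 stem cell libraries, 1 library per point. Egr1, Fos and Fosb are high in untreated EPSC and T09-treated ESC and low in the other libraries, and Egln3, Ndrg1 and Bnip3 are lower with T09 in EPSC and higher with T09 in ESC.

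The genes of the hypoxia response, which the factor HIF switches on when oxygen falls, lay mostly below 0 in the EPSC pair. Of 35 compared members of 36, 7 were called lower (20%, beside 3.29% of all genes) and 0 higher, 26 lay below 0, and the median was -0.38. Of the 7, 1, Adm, passed the count minimum only through the untreated library. With 1.5-fold in place of 2-fold the lower count was 14. The ESC pair had 5 of 34 higher (beside 1.39% of all genes in that pair) and 0 lower, and a median of 0.46.

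Egln3, a prolyl hydroxylase that marks HIF for destruction, had 361 and 81 counts (-2.21, -2.61 to -1.89). Ndrg1 had 720 and 239 counts (-1.67, -1.89 to -1.46), and Bnip3, a receptor for mitophagy, had 1176 and 489 (-1.35, with an upper bound of -1.20). Their ratios in the ESC pair were 1.10, 1.13 and 1.12. Bnip3 stood at 30.8 and 12.1 CPM in the EPSC pair, at 34.2 and 74.4 CPM in the ESC pair, 34.5 and 33.3 in the siNT and siNr1h2 blastoids, and 264 and 322 in the Type I and Type III blastoids. T09-treated EPSC was the lowest of the 8 libraries and untreated EPSC lay close to ESC, unlike the pattern of Egr1.

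Of the 7 lower genes, T09-treated EPSC had the lowest level of all 8 libraries for 5, and untreated EPSC the highest for 0. Over all 449 lower genes, T09-treated EPSC was lowest or tied for 155 and untreated EPSC highest for 126. Adm, which encodes the vasodilator adrenomedullin, had 54 and 2 counts (-3.87, -7.92 to -2.92). The carbonic anhydrase gene Car12 had 84 and 30 counts (-1.51, -2.22 to -0.95), and Pfkfb3, whose product raises glycolytic flux, had 534 and 271 (-1.06, -1.28 to -0.85). Stc2, a stanniocalcin gene, had 129 and 64 counts (-1.07, -1.55 to -0.65).

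Many members under 2-fold had intervals below 0. Vegfa, the angiogenic growth factor, had 2999 and 1978 counts (-0.68, -0.77 to -0.60), Ddit4, an inhibitor of mTORC1, 1545 and 935 (-0.81, -0.93 to -0.69), Egln1 1893 and 1317 (-0.61, -0.71 to -0.51), and the collagen prolyl hydroxylase genes P4ha1 and P4ha2 -0.66 and -0.68. Of the 35 genes, 22 had an interval below 0 and 3 above, against 28.7% and 27.7% of all genes compared. Exceptions were Pdk1, a kinase that restrains pyruvate oxidation, with 6963 and 8827 counts (0.26, 0.21 to 0.30), and the glucose transporter Slc2a1, with 11262 and 12156 (0.03, -0.01 to 0.06). Ndufa4l2, a mitochondrial gene known to respond to HIF, is outside the list and was looked up after the values were seen. It had 111 and 45 counts (-1.35, -1.92 to -0.87), against 1.92 in the ESC pair.

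Glycolytic enzymes lay closer to 0. Of 19 compared, 1 was lower (5.26%, beside 3.29% of all genes) and 0 higher, with a median of -0.10. The lower one was Slc16a3, the lactate exporter, with 1448 and 642 counts (-1.25, -1.39 to -1.12). Ldha, lactate dehydrogenase A, had 17701 and 14662 counts (-0.36, -0.39 to -0.32), Aldoc 312 and 194 (-0.76, -1.04 to -0.51), and Gapdh 161317 and 183106 (0.10, 0.09 to 0.11). The median of the list was 0.37 in the ESC pair, where Slc16a3 stood at 1.08. The labels do not give oxygen or cell density for either culture.

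HIF binds the core letters ACGTG. At least 1 promoter window held them, on either strand, for 20 of 29 hypoxia genes (69%) and for 29% of compared genes, and 19.6% of all windows held them. Among the 6 lower genes with a window, Bnip3, Egln3 and Pfkfb3 held a match. In the Bnip3 window the match reads the same on both strands and lies 108 bases before the start (chr7:138909477-138909756, minus strand), and in that of Egln3 it begins 229 bases before the start (chr12:54203845-54204124, minus strand).

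Bnip3: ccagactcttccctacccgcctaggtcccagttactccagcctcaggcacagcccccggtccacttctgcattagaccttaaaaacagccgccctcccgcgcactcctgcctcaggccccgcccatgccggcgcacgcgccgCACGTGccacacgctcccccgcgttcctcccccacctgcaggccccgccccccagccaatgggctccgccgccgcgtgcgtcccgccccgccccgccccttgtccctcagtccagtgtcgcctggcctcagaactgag
Egln3: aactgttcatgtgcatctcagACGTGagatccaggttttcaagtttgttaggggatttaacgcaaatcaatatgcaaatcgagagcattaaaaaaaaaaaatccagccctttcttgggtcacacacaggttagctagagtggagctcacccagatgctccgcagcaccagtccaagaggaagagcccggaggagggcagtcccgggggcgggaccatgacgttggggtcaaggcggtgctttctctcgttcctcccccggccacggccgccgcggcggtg

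The capitals mark the match in each. A match of 5 letters is common, as the share over all genes shows, and it measures no binding.

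Targets of LIF and STAT3, the pathway that sustains mouse naive pluripotency, included the largest ratio above 0 among genes with 2000 or more counts outside the LXR and fatty acid lists. Socs3, the feedback inhibitor of the LIF receptor, had 2463 and 6821 counts (1.38, 1.32 to 1.45), and 0.47 in the ESC pair. Its level was 64.5 and 169 CPM in the EPSC pair, 101 and 139 CPM in the ESC pair and 7.88 to 14.8 in the 4 blastoid libraries, so T09-treated EPSC was the highest of 8. Socs3 was the 1 called member of 17 (5.88%, beside 0.895% of all genes called higher). The others were under 2-fold, and the median of the list was 0.07.

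Other STAT3 or cytokine-feedback members leaned the same way. Bcl3, a nuclear co-activator, had 1772 and 3329 counts (0.83, 0.74 to 0.91), Gbx2, a homeobox gene that can replace LIF in culture, 602 and 1128 (0.82, 0.68 to 0.97), Socs2 2205 and 3693 (0.66, 0.58 to 0.74), and Cish 79 and 134 (0.67, 0.27 to 1.10). Jak3, a cytokine receptor kinase outside the list and picked after its values were seen, had 2296 and 4246 counts (0.80, 0.73 to 0.88) and 0.07 in the ESC pair. The receptor subunits and other targets did not follow: Il6st stood at 0.03, Lifr at -0.14, Stat3 at 0.14, Pim1 at -0.13 and Klf4 at 0.01. Tfcp2l1, a LIF-responsive pluripotency factor, stood at -0.37, and Pramel7 had 272 and 161 counts (-0.83, -1.13 to -0.55). Of the 17 members, 11 lay above 0 and 6 below.

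STAT3 and STAT5 bind the letters TTCNNNGAA. A window held them for 3 of 15 genes of the list (20%), against 7.97% of compared genes and 8.3% of all windows. The windows of Socs3 (chr11:117969337-117969616, minus strand, 154 bases before the start) and Cish (chr9:107296409-107296688, plus strand, at positions 1 and 12 after the start) show the matches in capitals.

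Socs3: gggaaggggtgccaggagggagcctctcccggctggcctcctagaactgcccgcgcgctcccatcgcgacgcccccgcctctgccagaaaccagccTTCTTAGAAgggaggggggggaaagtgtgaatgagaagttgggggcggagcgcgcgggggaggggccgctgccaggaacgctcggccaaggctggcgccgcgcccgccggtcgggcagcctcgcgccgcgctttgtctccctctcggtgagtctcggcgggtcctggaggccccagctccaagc
Cish: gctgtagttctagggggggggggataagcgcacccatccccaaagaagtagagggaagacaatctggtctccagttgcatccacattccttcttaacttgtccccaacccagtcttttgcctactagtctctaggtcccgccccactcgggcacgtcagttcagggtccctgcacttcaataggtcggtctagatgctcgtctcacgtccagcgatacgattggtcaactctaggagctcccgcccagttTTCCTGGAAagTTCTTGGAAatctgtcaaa

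The third gene was Sbno2, with 2576 and 3086 counts (0.18, 0.10 to 0.25). Il6st and Lifr held no match in this stretch, which says nothing of sites elsewhere.

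Naive pluripotency genes were called in 0 of 25 cases. Of the 25, 20 lay above 0 and the median was 0.16, or 0.07 once each gene was set against genes of like transcript length. Pou5f1, Sox2 and Nanog, the core factors, had ratios of 0.16, 0.16 and -0.04. Tdh, threonine dehydrogenase of the naive state, had 10426 and 17833 counts (0.69, 0.66 to 0.73), and Tdgf1, the Nodal co-receptor, 21930 and 33803 (0.54, 0.52 to 0.56). The 30 proliferation genes had a median of 0.01 with 0 called.

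Nodal and BMP targets went in different directions. Nodal signals keep Lefty1 and Lefty2 expressed. Lefty1, a secreted Nodal inhibitor, had 5140 and 2877 counts (-0.92, -0.99 to -0.85), and Lefty2 4167 and 2565 (-0.78, -0.86 to -0.71). Nodal itself had 2884 and 2453 counts (-0.32, -0.40 to -0.24). Lefty1 and Lefty2 were at 0.34 and 0.58 in the ESC pair. Of the BMP side, the ligand gene Bmp4 had 803 and 1606 counts (0.91, 0.79 to 1.04) and Id1, a direct BMP target that blocks differentiation factors, 370 and 842 (1.10, 0.92 to 1.28), while Msx2, another BMP target, had 21 and 7 (-1.42, -3.15 to -0.38). Bmp4 and Id1 had ratios of 1.03 and 0.61 in the ESC pair. Of the 18 compared genes of the joint list, 1 was higher and 2 lower, with a median of -0.19. These are 5.56% and 11.1%, beside 0.895% higher and 3.29% lower of all genes. Msx2 passed the count minimum only through the untreated library.

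Genes of the primitive endoderm, the extraembryonic layer that lines the blastocyst cavity, lay mostly below 0 but seldom by 2-fold. Of 31 compared members of 42, 2 were called lower (6.45%, beside 3.29% of all genes), Srgn (-1.04) and Pdgfra (-1.01), and 0 higher. Of the 31, 21 lay below 0 and 20 had an interval below 0, beside 28.7% of all genes. The median was -0.53, and it was -0.64 over the 22 members with 100 or more counts. With 1.5-fold as the threshold 13 were lower. The endocytic receptor gene Lrp2 had 8290 and 4573 counts (-0.94, -0.99 to -0.89), its adaptor gene Dab2 572 and 379 (-0.67), and the master factors Gata6 and Gata4 325 and 223 (-0.62) and 213 and 150 (-0.58). The basement membrane genes Col4a1, Col4a2 and Nid1 stood at -0.74, -0.65 and -0.67, while Sparc stood at 0.06 and Sox17 had 18 and 24 counts. Against genes of like length the median was -0.45 and 1 member was lower. Of 26 compared in the ESC pair 2 were lower (beside 2.53% of all genes in that pair), with a median of -0.16. The summed level of 4 defining markers of primitive endoderm was 19.3 CPM untreated and 12.1 treated, with 0 of the 4 at 0 counts in either library. In bulk RNA, fewer cells of a type and less RNA per cell cannot be told apart.

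Contractile genes and targets of the actin-sensing factor MRTF formed a small group of lower members. Of 24 compared, 4 were lower (16.7%, beside 3.29% of all genes) and 0 higher, with a median of -0.13. Acta2, smooth muscle actin, had 738 and 257 counts (-1.60, -1.82 to -1.40), and its level was 19.3 CPM untreated and 6.35 treated, against 0.512 and 0.140 in the ESC pair. Tagln, a smooth muscle actin-binding protein gene, had 213 and 79 counts (-1.49, -1.91 to -1.14), Myl9, a myosin light chain gene, 188 and 96 (-1.04, -1.42 to -0.69) and Lmod1 44 and 21 (-1.08, -1.98 to -0.37). Myl9 was also lower in the ESC pair, at -1.18. The ubiquitous members lay nearer 0, with Actb at 0.18, Vcl at -0.10 and Tpm4 at -0.07. The summed level of 7 fibroblast markers was 3.74 CPM untreated and 1.75 treated, on 143 and 71 counts. In the ESC pair it was 5.09 and 5.33 CPM. In each EPSC library 3 of the 7 were at 0 counts and only 2, Col1a1 and Thy1, had 20 or more. Their part in the result was not tested.

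Synaptic genes, which encode the machinery of transmitter release and reception, were called lower on low counts. Of 55 members 38 were compared, 13 were lower (34.2%, beside 3.29% of all genes) and 0 higher, and 34 lay below 0, with a median of -0.48. Of the 13 lower genes, 10 passed the count minimum only through the untreated library, a filter that favours lower calls. Over all genes, 425 passed only through the untreated library and 241 of those were lower. Among the 22 synaptic genes with 100 or more counts 2 were lower, Camk2a and Syp, beside 1.01% of all genes with such counts. Their median was -0.22.

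Snap25, a SNARE protein of vesicle fusion, had 95 counts untreated and 1 treated (-5.07, -11.97 to -4.14). Its counts in the other libraries were 0 in ESC, 0 in T09-treated ESC, 26 and 12 in the siNT and siNr1h2 blastoids, and 0 and 10 in the Type I and Type III blastoids, so untreated EPSC stood above all others. Syt1, the calcium sensor of release, had 42 and 1 counts, Cplx2, a complexin gene, 56 and 4, and the vesicle protein gene Sv2b 33 and 3. On the receiving side, Grin2b, an NMDA receptor subunit gene, had 23 and 1 counts, the scaffold genes Dlg4 and Shank2 60 and 11 and 43 and 9, and Camk2a, the kinase of synaptic plasticity, 195 and 59 (-1.77, -2.25 to -1.38). Syp, synaptophysin, had 115 and 55 counts (-1.12, -1.64 to -0.67). In the opposite direction Grin1, the obligate NMDA receptor subunit gene, had 167 and 270 counts (0.60, 0.33 to 0.90).

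Some glial and channel genes were also called lower. Slc1a2, the astrocyte glutamate transporter gene, had 75 and 2 counts (-4.33, -8.38 to -3.41), Mbp, a myelin protein gene, 309 and 94 (-1.78, -2.15 to -1.46), Gpm6a 42 and 4 and Gpm6b 32 and 5. Of 10 compared glial genes 4 were lower (40%, beside 3.29% of all genes), 3 of which passed the count minimum only through the untreated library. Of 25 channel genes 5 were lower (20%, beside 3.29% of all genes) and 0 higher, with a median of -0.42. Of these 5, 2 passed the count minimum only through the untreated library. Among the 14 channel genes with 100 or more counts 1 was lower, beside 1.01% of all genes with such counts. Other glial genes lay above 0, with Glul, glutamine synthetase, at 2726 and 3420 counts (0.24, 0.17 to 0.32), the gap junction gene Gja1 at 1455 and 1785 (0.21, 0.11 to 0.31) and the glutamate transporter gene Slc1a3 at 259 and 325 (0.24, 0.00 to 0.48). The median of the glial list was -0.22 over the 10 genes and 0.09 over the 6 with 100 or more counts. Sparcl1, an astrocyte matrix protein gene, had 152 and 26 counts (-2.54, -3.29 to -2.02). The summed level of 5 glial markers was 34.3 CPM untreated and 27 treated. Of 25 genes of neuronal structure and RNA binding 3 were lower (12%, beside 3.29% of all genes), and the median was -0.20. The 3 were Nrcam, Nsg1 and Chgb, each with 33 counts or fewer. All 3 passed the count minimum only through the untreated library. Over the 18 members with 100 or more counts 0 were lower, and the median was 0.05. Neuronal genes with 1000 or more counts lay on both sides of 0. Map1b, a microtubule-associated protein gene, had 5527 and 3598 counts (-0.70, -0.76 to -0.64) and Mapt, which encodes tau, 1270 and 1053 (-0.35, -0.47 to -0.24). Stmn2 had 9206 and 10712 counts (0.13, 0.09 to 0.18) and Tubb3 5607 and 6317 (0.09, 0.04 to 0.14), and of 10 neuroectoderm genes 0 were called.

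A set of 43 genes that are abundant in mature brain was drawn up after these values were seen and is described only. In untreated EPSC 33 of them had 20 or more counts and 1 was at 0, while T09-treated EPSC had 23 and 6, untreated ESC 23 and 9, and T09-treated ESC 22 and 8. Their summed level was 603 and 579 CPM in the EPSC pair, of which Stmn2 alone made up 241 and 265 CPM. The 6 neuron markers summed to 395 and 423 CPM, and 5 of them had 20 or more counts untreated and 3 treated. Of the 13 lower synaptic genes, untreated EPSC was the highest of the 8 libraries for 6 and above both ESC libraries for 11. Over all 449 lower genes these counts were 126 and 284. Whether a few other cells or stray RNA in the untreated library had a part in these values was not tested.

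**Figure D3:**
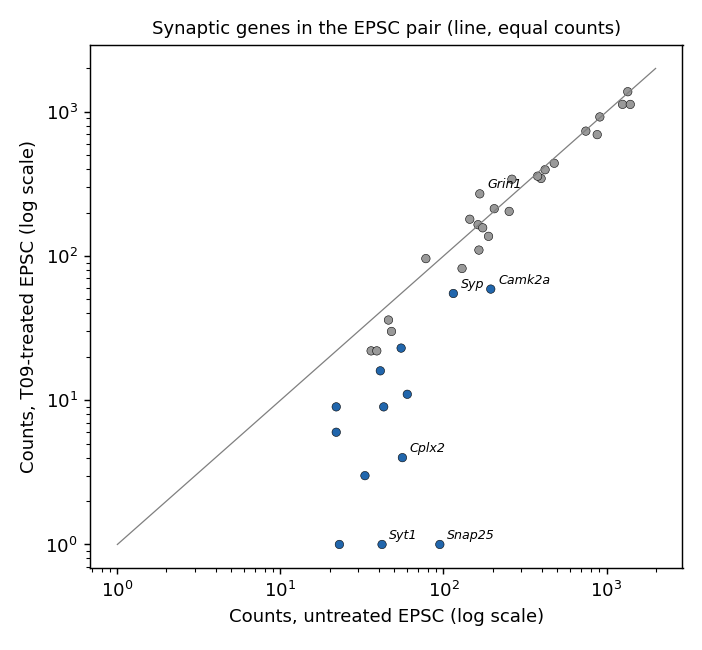
Counts of the 38 compared synaptic genes in untreated EPSC (horizontal axis) and T09-treated EPSC (vertical axis), both on log scales, 1 point per gene, blue for called lower; the line marks equal counts. Genes with high counts lie near the line, and Snap25, Syt1 and Cplx2, with 1 to 4 counts in the treated library, lie far below it.

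Lists of other lineages had at most 3 genes called in 1 direction. The share lower was 8% for trophectoderm, 17.6% for fibroblast and collagen genes, and 11.1% each for YAP targets and mesoderm. It was 5.71% for germline and 5.26% for formative genes, beside 3.29% of all genes. The shares higher were 4%, 5.88%, 0%, 11.1%, 2.86% and 0% in the same order, beside 0.895%. Of 25 trophectoderm genes 1 was higher, Gata2 (32 and 71 counts, 1.02), and 2 were lower, the tetraspanin gene Tspan8 (31 and 6, -2.12) and Wnt7b (57 and 28, -1.06), with a median of -0.25. Of 17 fibroblast and collagen genes 1 was higher, Col6a2 (3 and 22 counts), and 3 were lower, Col1a1 (65 and 33, -1.02), Thy1 (57 and 27, -1.10) and Loxl2, a matrix cross-linking enzyme gene (759 and 393, -1.03, -1.21 to -0.86), with a median of -0.45. These 2 lists thus held genes called in both directions, and of the called genes only Loxl2 had over 100 counts in a library. Of 18 YAP targets 2 were lower, Ctgf and Cyr61, with a median of -0.32. Mesoderm genes gave 1 higher of 9, Mixl1 (13 and 35 counts, 1.23), and 1 lower, Snai1 (56 and 25, -1.18). Among 35 germline and meiosis genes 1 was higher, Tex12 (24 and 62, 1.22), and 2 were lower, the piRNA helicase gene Tdrd9 (91 and 41, -1.19) and the testis bromodomain gene Brdt (91 and 35, -1.41), with a median of 0.01. Of 19 formative and early epiblast genes 1 was lower, Car14 (26 and 12 counts), with a median of -0.10. Tspan8 and Car14 passed the count minimum only through the untreated library, and Col6a2 and Mixl1 only through the treated one.

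Transcript length moved with the ratio in the EPSC pair. Genes with 1000 or more counts were placed in 8 bins by their longest transcript in the reference annotation. The median ratio went from 0.15 in the shortest bin (319 to 1730 bases) to -0.27 in the longest (6712 bases and over), in steps of 0.11, 0.09, 0.06, 0.03, -0.04 and -0.10 between them. The same bins of the ESC pair lay between 0.00 and 0.06. Well-counted long genes below 0 included cytoskeletal and nuclear ones. Dst and Macf1, giant cytoskeletal linkers, stood at -0.92 and -0.75, the ribosome assembly gene Mdn1 at -0.82 and the histone methyltransferase gene Kmt2c at -0.86, all picked after their values were seen. The lists of respiratory chain and ribosomal protein genes, whose transcripts are short, lay above 0. Of 47 respiratory chain genes 47 were above 0, with a median of 0.18, and of 39 cytosolic ribosomal protein genes 37, with a median of 0.14. Set against genes of like length, these medians were 0.05 and -0.00.

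Centring on length was then applied to the lists described above. Against genes of like length the medians were -0.40 for hypoxia, -0.27 for immediate-early genes, -0.39 for synaptic genes and 0.20 for LIF and STAT3 targets, while that of the channel genes, which are long, went from -0.42 to -0.22. Of the 122 higher and 449 lower genes, 98 and 382 were called in the same direction after the centring. The labels give no measure of RNA integrity for either library.

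**Figure D4:**
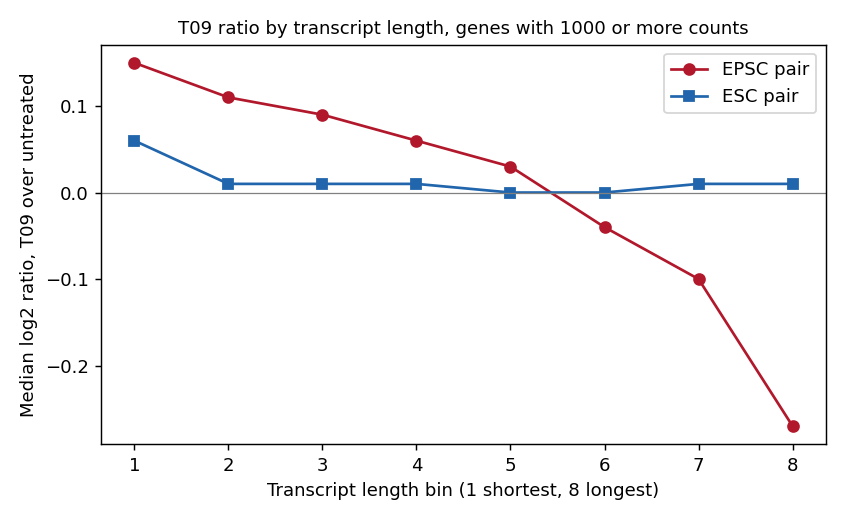
Median log2 ratio of T09-treated over untreated cells (vertical axis) in 8 bins of transcript length (horizontal axis, from 1, shortest, to 8, longest) for genes with 1000 or more counts, 1 line per pair of libraries. The EPSC pair goes from 0.15 to -0.27 and the ESC pair stays between 0.00 and 0.06.

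The long noncoding RNAs of the imprinted Dlk1 to Dio3 region, which are read from the maternal chromosome, lay above 0 together, although Meg3 and Rian have transcripts of 14548 and 8089 bases. Meg3 had 4523 and 7871 counts (0.72, 0.66 to 0.77), Rian 5796 and 10255 (0.74, 0.69 to 0.79) and Mirg 305 and 688 (1.08, 0.89 to 1.29). These 3 are neighbours and may be parts of 1 long transcript, so they do not count as independent. Their ESC ratios were -0.19, -0.18 and -0.48. Dlk1, the paternally expressed growth regulator of the region, lay the other way at -0.71, as did H19 (522 and 297 counts, -0.89) and Igf2 (66 and 28, -1.26), a second imprinted pair. Of 31 imprinted genes compared 1 was higher, Mirg, and 1 lower, Igf2, with a median of -0.21. Each is 3.23%, beside 0.895% higher and 3.29% lower of all genes.

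Among the highest-counted genes, those with 2000 or more counts in 1 of the 2 libraries, the largest ratios outside the lipid lists were few. Above 0 were Socs3, Prr13 (999 and 2316 counts, 1.13), Lars2, the mitochondrial leucyl-tRNA synthetase gene (4335 and 9098, 0.99), Trh, the precursor gene of thyrotropin-releasing hormone (1416 and 2763, 0.88) and Hmces, which protects abasic sites in DNA (1331 and 2593, 0.88). Trh had 0.77 in the ESC pair, and Lars2 had -0.00. Below 0, after Egr1, were Zbed6, a repressor encoded within an intron of Zc3h11a (4392 and 1670 counts, -1.48, -1.56 to -1.40), Ago2, the slicer of RNA interference (9934 and 4342, -1.28), Lnpep, an aminopeptidase gene (2351 and 1043, -1.25), and Rnf213, a giant ubiquitin ligase gene (8092 and 4042, -1.08). Reads of Zbed6 and its host gene may not be separable, and 3 of these 4, Ago2, Lnpep and Rnf213, were under 2-fold once set against genes of like length, at -0.93, -0.91 and -0.74.

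The naming rule for genes with 100 or more counts also brought genes of middle abundance. Insl3, a relaxin-family hormone gene, had 37 and 127 counts (1.64, 1.16 to 2.26), the complement protease gene C1s1 55 and 162 (1.44), the junction adhesion gene Esam 37 and 115, Fgf17, a fibroblast growth factor gene, 86 and 225 (1.28), the mucin gene Muc1 119 and 274 (1.11), and Rgma, a BMP co-receptor gene, 63 and 157 (1.21). With T09 in ESC the log2 ratios of these 6 were -0.46, 0.27, -0.87, 0.66, -0.14 and -0.09. Lower genes of this range included Chst15, a chondroitin sulfotransferase gene (223 and 56 counts, -2.04), Cemip, whose product breaks down hyaluronan (607 and 181, -1.82), Flrt1 (103 and 24, -2.09), Rassf4 (424 and 128, -1.80) and Hhip, the decoy receptor of Hedgehog (177 and 51, -1.84). The ESC ratios of these 5 were -0.36, -0.78, -0.04, -0.34 and -1.22.

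The calls of both pairs were then set side by side. Only 89 of the 122 genes higher in EPSC and 291 of the 449 lower had enough counts to be compared in ESC. Of the 122, 11 were higher in ESC as well, which is 9.02% of the EPSC calls and 5.91% of the 186 ESC calls (1.39% of 13412 genes). Of the 449 lower, 23 were lower in ESC, or 5.12% of the EPSC calls and 6.78% of the 339 ESC calls (2.53% of 13412 genes). Among the 11 were Abcg1, Abca1, Mylip, Scd1, Scd2, Scd3 and Srebf1, all of the lipid lists, and Crb3, Igip and Krtcap3. Crb3, an apical polarity gene, had 9 and 26 counts in EPSC (1.27) and a ratio of 1.88 in ESC. Igip had 53 and 132 counts (1.20) and 1.22, and Krtcap3 had 32 and 73 (1.06) and 1.15. Among the 23 lower in both were Hhip, the ligand gene Bmp6 (40 and 15 counts, -1.38, and -1.17 in ESC), the gluconeogenic enzyme gene Fbp1 (35 and 13, -1.38, and -1.55), Vnn1, a pantetheinase gene (65 and 28, -1.24, and -1.59), and the calcium channel gene Itpr2 (76 and 37, -1.08, and -1.27). Krtcap3 and Itpr2 were under 2-fold in EPSC once set against genes of like length, at 0.91 and -0.74. Among compared genes, calls in opposite directions were about as frequent as calls in the same direction. Of the 89 compared genes higher in EPSC, 11 were lower in ESC and 11 higher, beside 2.53% and 1.39% of all genes there. Of the 291 compared genes lower in EPSC, 25 were higher in ESC and 23 lower. By sign alone, 48 of the 89 (53.9%) lay above 0 in ESC and 179 of the 291 (61.5%) below 0. Of all genes compared in both pairs, 51.5% lay above 0 in ESC.

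**Figure D5:**
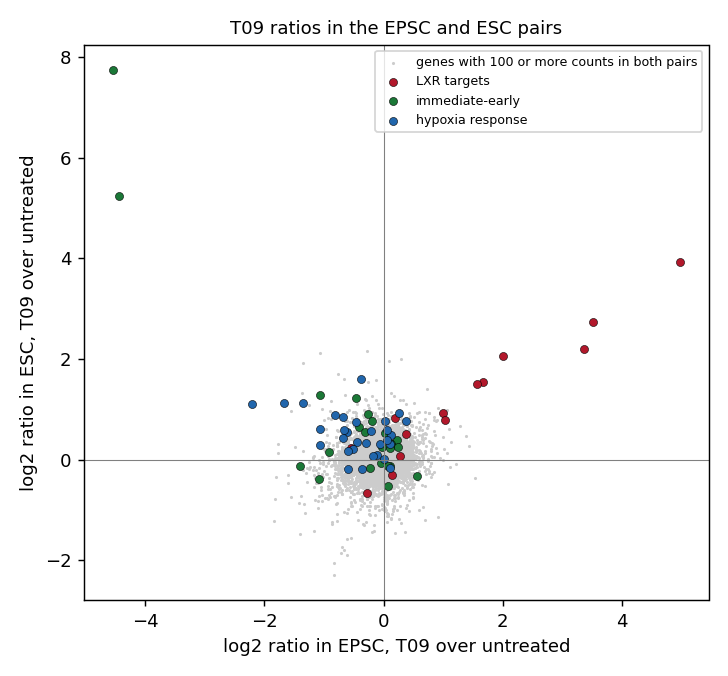
Log2 ratio with T09 in EPSC (horizontal axis) and in ESC (vertical axis), 1 point per gene with 100 or more counts in both pairs; grey for all genes, red for LXR targets, green for immediate-early and blue for hypoxia-response genes. LXR targets lie along the upward diagonal, Egr1 and Fos lie at the upper left, and the hypoxia genes with ratios under -1 in EPSC lie above 0 in ESC.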

How the data were processed

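RNA of 8 libraries, 1 per group, was sequenced after DNase treatment and directional library preparation, per the labels' protocols. The authors deposited 1 table of raw counts per gene symbol, whole numbers, with 0 columns of no sample. Per the submitters' processing notes the build was mm9 and the tools included STAR, HTSeq and Cuffnorm; versions, roles, annotation and strand setting are not given in the sources used here. Overlapping, antisense and near-identical genes may therefore share counts. Total counts ran from 24666260 to 40781415 per library. PCR copies were not marked by molecular identifiers, so the intervals and floors reflect counting error alone.

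Counts were scaled by TMM factors of all 8 libraries (edgeR 4.0.16 in R 4.3.3), and Python 3.11.15 with SciPy 1.17.1 and pandas 2.3.3 did the rest. The log2 ratio had a prior count of 2, which the exact conditional interval does not include. A gene needed 20 counts in 1 library, a 2-fold ratio and an interval that excluded 0. A fold against 0 counts used a floor of 3 counts in that library. A fit over both cell states was not used here. The procedure was tested on simulated data. The groups came from the sample labels.

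The members and the 48 gene lists were chosen with earlier results of these data known. Named genes were the 15 higher and 15 lower outside the lipid lists with 100 or more counts and the interval bound furthest from 0, the 5 in each direction with 2000 or more counts and the largest ratio, up to 4 leading members of each list, every compared member of the immediate-early, hypoxia, glycolytic, synaptic, neuronal, glial, primitive endoderm and contractile lists, and core LXR and pluripotency genes. Predicted and unnamed genes were left out of the first 2 rules. Other list members named as examples, and genes outside the lists, were chosen after their values were seen. Alternatives were scaling by RLE or by library totals, a minimum of 100 counts or none, 1.5-fold, an assumed biological coefficient of variation of 0.2 and a prior count of 0.5. Centring each ratio on the median of genes of like transcript length (20 bins of genes with 100 or more counts) was added after the data were seen. The longest transcript of each symbol came from GENCODE M21, a later build, and 99.2% of the compared genes had one.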

Additional observations from a re-analysis of the deposited data

Results flagged for a closer look

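The genes below, those named by rule or in the text, were called in opposite directions in the 2 pairs, lower with T09 in EPSC and higher with T09 in ESC. They are 13 of the 25 genes with this pattern. Each pair has 1 library a side, so the difference between the pairs was not tested.

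Immediate-early genes were among them. Egr1 had a log2 ratio of -4.55 in EPSC and 7.74 in ESC, Fos -4.45 and 5.23, Fosb -4.48 and 2.19, and Maff -1.07 and 1.28. Genes of the hypoxia response and lactate export included Egln3 at -2.21 and 1.10, Ndrg1 at -1.67 and 1.13, Car12 at -1.51 and 1.08, Bnip3 at -1.35 and 1.12, Ndufa4l2 at -1.35 and 1.92, and Slc16a3 at -1.25 and 1.08. The matrix cross-linking enzyme gene Loxl2 stood at -1.03 and 1.00. Slfn8 (-1.07 and 2.11) and the transcription factor gene Zbtb20 (-1.71 and 1.04) lie outside the lists and were looked up after their values were seen.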

How the results depend on the processing

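No named gene changed sign among called values under any alternative run. Calls without a count minimum were 247 higher and 798 lower, with 20 synaptic genes lower. With a minimum of 100 counts they were 31 and 114, with 2 synaptic genes lower. At 1.5-fold they were 335 and 1039, with 14 hypoxia and 13 primitive endoderm genes lower. After centring on transcript length, added after the data were seen, 5 immediate-early and 1 primitive endoderm gene were lower. Of the 3 immediate-early calls lost, Ctgf and Cyr61 had no transcript under their symbol and could not be centred, and Fosl2 went to -0.87. The counts of higher and lower genes and of the LXR, immediate-early, hypoxia, synaptic, primitive endoderm and contractile lists were within 1.5 times of those reported under RLE size factors, library totals, a prior count of 0.5 and an assumed biological variation of 0.2, and the last kept 103 of 122 higher and 393 of 449 lower genes. No paired analysis was possible because each group has 1 library. The interval covers counting error only, and the spread between cultures is unknown. Of the called genes 74.6% had under 100 counts in both libraries.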

Other observations

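Several stress programmes that the report does not describe differed little in the EPSC pair. Of 26 p53 targets 0 were called, with a median log2 ratio of -0.09, and of 23 genes of the unfolded protein response 0, with a median of 0.02. Of 32 targets of ATF4, the factor of the amino acid response, 1 was lower, Stc2 (3.12%, beside 3.29% of all genes), with a median of -0.10. The 18 heat shock genes had a median of 0.12 and the 22 NRF2 and oxidative stress genes 0.06, with 0 called in each. Of 21 compared interferon-stimulated genes 0 were called, with a median of 0.18, among them the RNA sensor gene Ddx58 with 263 and 483 counts (0.79, 0.57 to 1.02) and the MHC class I gene H2-K1 with 540 and 977 (0.77, 0.62 to 0.93). H2-K1 stood at 0.92 in the ESC pair and Ddx58 at -0.07.

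Of 17 compared clock genes 16 lay below 0, with a median of -0.30, or -0.19 against genes of like length. Npas2 and Bhlhe41 were called lower (11.8%, beside 3.29% of all genes), on 29 and 13 and on 29 and 12 counts. Both passed the count minimum only through the untreated library. Of 15 genes of DNA methylation and demethylation 1 was lower (6.67%, beside 3.29% of all genes). It was Tdg, the thymine DNA glycosylase gene, with 31 and 4 counts (-2.53, -5.00 to -1.54). Tdg passed the count minimum only through the untreated library. Tdg has near-identical copies in the mouse genome, so its counts are uncertain. The autophagy receptor gene Calcoco2 had 8856 and 5396 counts (-0.80, -0.85 to -0.75) and -0.89 in the ESC pair. Of 9 compared replication-dependent histone genes, Hist1h4b (7 and 36 counts) and Hist1h1a (6 and 24) were higher and Hist3h2a (33 and 15) was lower. These are 22.2% and 11.1%, beside 0.895% higher and 3.29% lower of all genes. Hist1h4b and Hist1h1a passed the count minimum only through the treated library and Hist3h2a only through the untreated one. Only 1 of the 9 had 100 or more counts, and it was not called. Median ratios by chromosome lay between -0.04 and 0.07 over 20 chromosomes.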
